A study of Mus musculus with 6 samples.

Results

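The endothelial cells of 6 mouse retina libraries were taken apart here by the genes of arteries, veins, tip cells, fenestrated capillaries, the blood-retinal barrier and the cell cycle. A barcode was taken as an endothelial cell when at least 3 of 8 pan-endothelial genes (Cldn5, Pecam1, Cdh5, Tie1, Egfl7, Esam, Eng and Ctla2a) had a unique molecular identifier (UMI, a count of 1 captured transcript), when Cldn5, Cdh5 or Pecam1 was among them, and when Kcnj8, a pericyte channel gene, had none. The cells were thus chosen by measured counts of these 9 genes. In all, 240 of 38995 barcodes with at least 500 detected genes and at most 20% mitochondrial UMIs met this rule. The OIR libraries came from mice kept in 75% oxygen from postnatal day 7 to 12 and then in room air for 5 days, the model of oxygen-induced retinopathy, in which retinal capillaries are first lost and new vessels then grow towards the vitreous. The control (Ctrl) libraries came from mice kept in room air throughout. All mice were 17 days old, each library pooled the retinas of 2 mice, and there were 3 libraries per group. The strain is not given in the sources used here, and no transgene or deletion is named for these libraries.

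Retinal endothelium is zoned: arterial cells express Notch and Sox factors, venous cells express Nr2f2, and capillary cells carry the transporters and tight junctions that close the vessel wall to plasma. A growing vessel is led by tip cells, which express Esm1, Apln and Angpt2, and is lengthened by dividing cells behind the tip. Plvap, the protein of the diaphragms of fenestrae and caveolae, is low where the barrier is closed and is found in leaky or fenestrated vessels.

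The barrier list did not overlap between OIR and control libraries, nor did the lists of other endothelial genes and of signalling receptors, all lower in OIR. The barrier list's summed level was 14078 ± 7181 CPM (the UMIs of a gene over those of all endothelial cells of a library, times 1000000) in OIR and 34216 ± 2284 CPM in control (mean ± SD, n = 3), and Slc16a1, the monocarboxylate transporter, fell, a call that was lost with the replicate number as a block. Plvap was detected in each OIR library and in 1 of 3 control libraries. Cells with a full set of G2/M genes were found in OIR-1 and OIR-2 and in no control library. The arterial, venous and tip cell lists overlapped between the groups.

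The libraries were very unequal. OIR-1, OIR-2 and OIR-3 held 34, 2 and 2 endothelial cells among 6161, 5605 and 7523 filtered barcodes, and Ctrl-1, Ctrl-2 and Ctrl-3 held 186, 4 and 12 among 7246, 5426 and 7034. The endothelial UMIs came to 1104827, 66334 and 128297 in the OIR libraries and to 2990672, 57595 and 51202 in the control libraries. In OIR-3, 98.1% of these UMIs came from 1 cell, and in OIR-2, 88.7%. Ctrl-2 and Ctrl-3 drew 29.7% and 28.6% of theirs from their deepest cell. Endothelial cells made up 0.205 ± 0.301% of the filtered barcodes in OIR and 0.937 ± 1.41% in control (SD, n = 3), where no difference could be shown (two-sided exact permutation test, p = 0.5, with 0.1 the smallest p possible). Without Ctrl-1 the difference, OIR minus control, turned from -0.732 to 0.0825 percentage points, and fewer cells in a library cannot be told apart from poorer recovery. Between libraries of the same number, OIR had the lower share each time (0.552 against 2.57%, 0.0357 against 0.0737% and 0.0266 against 0.171%). The labels do not say what these numbers mark. The submitters label the samples as retinal endothelial cells, but rods were 26912 of the 38995 filtered barcodes.

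Sex differed between the groups as well. Xist, the transcript of the inactive X chromosome, was at 1744 and 2007 CPM over all filtered barcodes of Ctrl-2 and Ctrl-3 and below 1 CPM in the other 4 libraries, where Y-linked genes were found, so that all OIR libraries and Ctrl-1 were male and the other control libraries female. Depth differed along with the groups. The median was 24792 UMIs per endothelial cell in OIR-1, against 9382 in Ctrl-1, 14617 in Ctrl-2 and 1432 in Ctrl-3. More than 5000 genes were detected in 17 of 34 cells of OIR-1 and in 47 of 186 cells of Ctrl-1. Levels are therefore given in CPM, and shares of cells with a UMI are also given after each cell was thinned to a fixed number of UMIs. Nothing in the labels says that the pools came from separate litters, so that p-values measure the spread between these libraries.

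The rule genes were present in all libraries, as the rule requires. All 8 were detected in 26, 1 and 1 cells of the OIR libraries and in 120, 4 and 4 cells of the control libraries. Cldn5, the claudin of endothelial tight junctions, stood at 3611, 3980 and 4466 CPM in OIR-1 to OIR-3 and at 6239, 3368 and 3750 CPM in Ctrl-1 to Ctrl-3. Esam, a junctional adhesion molecule, was the rule gene whose groups did not overlap, with 651, 588 and 600 CPM in OIR and 977, 781 and 1191 CPM in control. These values are descriptions, because the genes chose the cells.

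A list of 20 other endothelial genes, not used by the rule, was detected in full in every library. Its summed level was 9156, 12121 and 11871 CPM in the OIR libraries and 17540, 18040 and 17773 CPM in the control libraries. Ly6c1, a surface antigen of capillary endothelium, had the lowest unadjusted p of the list. It stood at 435, 1191 and 491 CPM in OIR and at 3885, 2344 and 2851 CPM in control. Near the limit of the rule the cells of OIR-1 and Ctrl-1 had less of this list. The 5 cells of OIR-1 with 3 rule genes had a level of 2736 CPM for this list, and the 3 with 4 to 6 rule genes 1030 CPM, against 9504 CPM in the 26 cells with 7 or 8. The 11 cells of Ctrl-1 with 3 rule genes had 2302 CPM, the 18 with 4 to 6 had 10908 CPM and the 157 with 7 or 8 had 17847 CPM. In Ctrl-3 the 3 cells with 4 to 6 rule genes had 19133 CPM, above the 17671 CPM of the 9 with 7 or 8. Of the 2 cells of OIR-3, 1 had 4 to 6 rule genes, 839 CPM of this list and 15094 CPM of rod genes, so that this library in effect held 1 endothelial cell. The 29 barcodes of OIR-1 with 2 rule genes, just outside the rule, had 708 CPM.

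**Figure D1:**
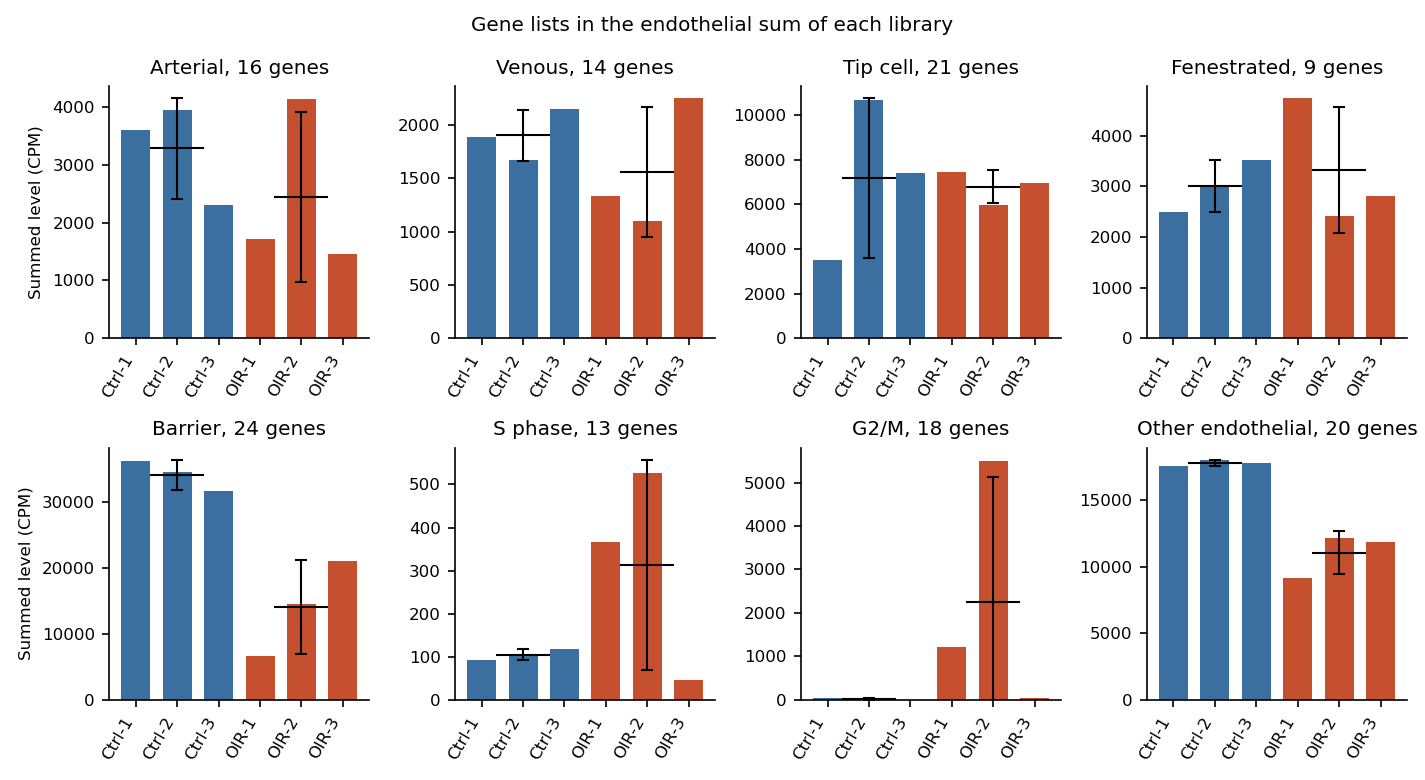
Summed level in CPM (y axis) of 8 gene lists in the endothelial cells of each library (x axis, blue control, orange OIR); bars are libraries, and black marks give the mean ± SD of 3 libraries, cut at 0. The barrier list and the other endothelial list lie lower in all 3 OIR libraries than in any control library, the G2/M list is high in OIR-1 and OIR-2, and the arterial, venous, tip cell and fenestrated lists overlap.

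Of the 24 barrier genes, 21 passed the filter on low counts, 19 of these had a lower fitted level in OIR, and their median log2 fold change was -0.83, where that of all 1763 genes tested was -0.03. Slc16a1 was the barrier gene that fell (edgeR quasi-likelihood test, log2 fold change -4.14 ± 0.68 SE, Benjamini-Hochberg adjusted p = 0.0443). Over all genes tested, 0.113% were called lower and 0.227% in either direction. At an unadjusted p below 0.05, 8 of the 21 lay lower, as did 6.24% of all genes. In 8 of the 24 barrier genes all OIR libraries lay below all control libraries, against 4.47% of the genes with a UMI (3.21% lay apart with OIR higher). Of the 20 other endothelial genes, 19 were tested, 15 of these had a lower fitted level, and their median log2 fold change was -0.57. At an unadjusted p below 0.05, 5 of the 19 lay lower, and 6 of the 20 lay apart with OIR lower. A lower level was thus not particular to the barrier list. The call of Slc16a1 was lost with the replicate number as a block (adjusted p = 0.19) and without OIR-1, Ctrl-1, Ctrl-2 or Ctrl-3 (adjusted p = 0.347, 0.138, 0.156 and 0.0589). It was also lost with a sex term (adjusted p = 0.102), with at least 4 or 7 rule genes (0.0616 and 0.0611), without cells holding genes of another cell type (0.07) and without cells rich in haemoglobin UMIs (0.0527). Its log2 fold change stayed between -5.15 and -3.74 under all 19 alternatives in which it was tested. In OIR-1 and the 2 control libraries with at least 10 cells, 8 of the 24 genes were called lower, against 2.29% of all genes (3.17% were called higher), where the lone OIR library is assumed to vary like the control libraries.

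Slc16a1 (chr3:104638668-104658462, GRCm38, plus strand) encodes a transporter of lactate and ketone bodies. Its level was 44.4, 0 and 148 CPM in OIR-1 to OIR-3 and 1345, 1250 and 859 CPM in Ctrl-1 to Ctrl-3. The highest OIR library thus stayed below the lowest control library. Bsg (basigin, chr10:79704491-79711969, GRCm38, plus strand), the chaperone that brings this transporter to the membrane, stood at 1493, 1447 and 10242 CPM in OIR and at 16454, 16807 and 14863 CPM in control. The groups did not overlap, but Bsg did not pass the adjusted threshold (log2 fold change -1.87 ± 0.63 SE, adjusted p = 0.309). The OIR-3 value rested on 1 cell with 1311 of the library's 1314 Bsg UMIs.

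Itm2a, a membrane protein of brain capillaries, stood at 477, 271 and 2104 CPM in OIR and at 2395, 2882 and 2773 CPM in control. Pltp, the phospholipid transfer protein, stood at 371, 497 and 1645 CPM in OIR and at 2337, 1945 and 2715 CPM in control. Spock2, a secreted proteoglycan, stood at 166, 633 and 1403 CPM in OIR and at 1624, 2396 and 1582 CPM in control. In all of these OIR-3 was the highest OIR library, and all 3 genes lay apart without passing the adjusted threshold (adjusted p = 0.367, 0.304 and 0.401). Mfsd2a, the lipid transporter that holds back transcytosis, stood at 288, 211 and 125 CPM in OIR and at 330, 451 and 645 CPM in control (adjusted p = 0.349). Lsr, the lipolysis-stimulated receptor of tricellular junctions, stood at 158, 211 and 164 CPM in OIR and at 291, 295 and 352 CPM in control (adjusted p = 0.358).

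Not every barrier gene followed this pattern. Slc2a1, the glucose transporter, stood at 1402, 3874 and 1504 CPM in OIR and at 4172, 2570 and 2695 CPM in control, so the groups overlapped (log2 fold change -0.49 ± 0.42 SE, adjusted p = 0.696). Slc3a2, the heavy chain of amino acid transporters, had 571, 2216 and 811 CPM in OIR and 1255, 642 and 664 CPM in control. Foxf2, a transcription factor of brain vessels, had 99.6, 121 and 117 CPM in OIR and 105, 104 and 78.1 CPM in control. Slc3a2 and Foxf2 were the 2 barrier genes among the 21 tested whose fitted level was not lower in OIR. With the genes under the filter fitted as well, 3 of 24 had a higher fitted level.

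**Figure D2:**
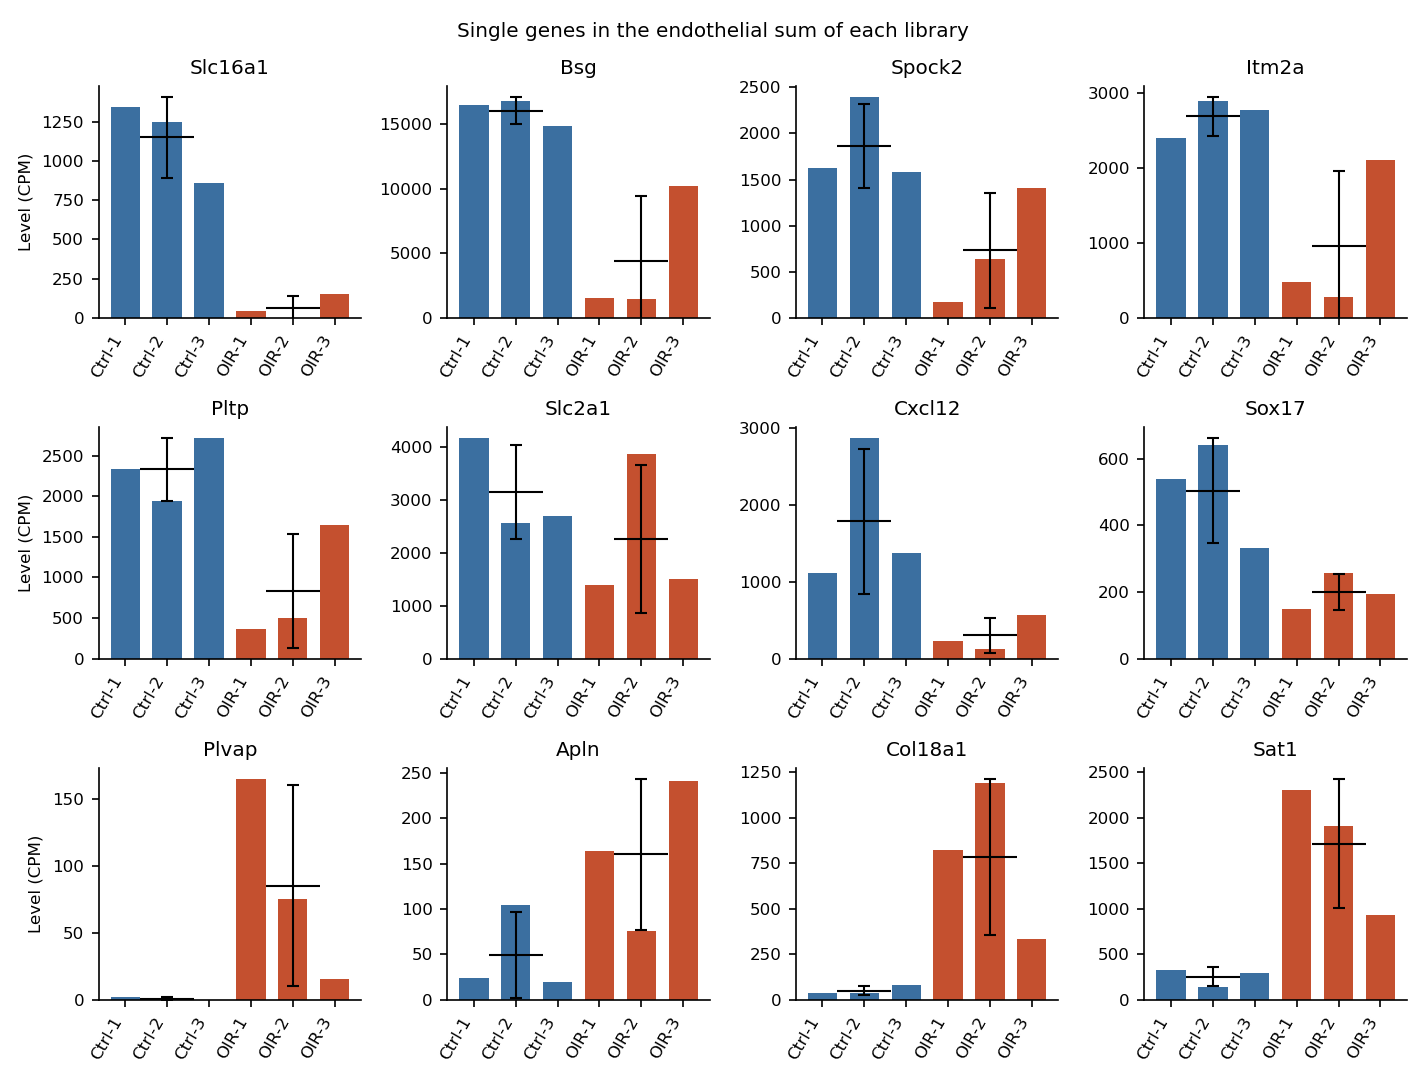
Level in CPM (y axis) of 12 genes in the endothelial cells of each library (x axis, blue control, orange OIR); bars are libraries and black marks the mean ± SD of 3 libraries, cut at 0. Slc16a1, Bsg, Spock2, Itm2a, Pltp, Cxcl12 and Sox17 lie lower and Col18a1 and Sat1 higher in every OIR library, Plvap is listed higher with 2 UMIs in OIR-3, while Slc2a1 and Apln overlap.

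The lower barrier level was seen cell by cell. The median endothelial cell had 6404 CPM of the barrier list in OIR-1, with a range of 776 to 13846, and 36716 CPM in Ctrl-1, with a range of 1445 to 67584. Among cells with 7 or 8 rule genes, the ranges were 2016 to 13222 CPM in OIR-1 and 1447 to 58588 CPM in Ctrl-1. The 2 cells of OIR-2 had 14442 and 14493 CPM, above every cell of OIR-1. Ctrl-2 and Ctrl-3 had medians of 41105 and 30618 CPM. Thus the highest cell of OIR-1 lay below the lowest cells of Ctrl-2 and Ctrl-3, at 15390 and 15284 CPM. The deep cell of OIR-3, with 2696 barrier UMIs among 125912, had 21412 CPM, which lay within the range of all 3 control libraries. After thinning to 10000 UMIs, which left 26 cells of OIR-1 and 88 of Ctrl-1, Slc16a1 had a UMI in 19.2% of the OIR-1 cells (95% Clopper-Pearson interval 6.55 to 39.4%) and in 95.5% of the Ctrl-1 cells (88.8 to 98.7%). Spock2 had one in 61.5% (40.6 to 79.8%) and 98.9% (93.8 to 100%), and Mfsd2a in 57.7% (36.9 to 76.6%) and 83.0% (73.4 to 90.1%). Bsg was found in all cells of both. These intervals cover counting error within 2 libraries only.

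**Figure D3:**
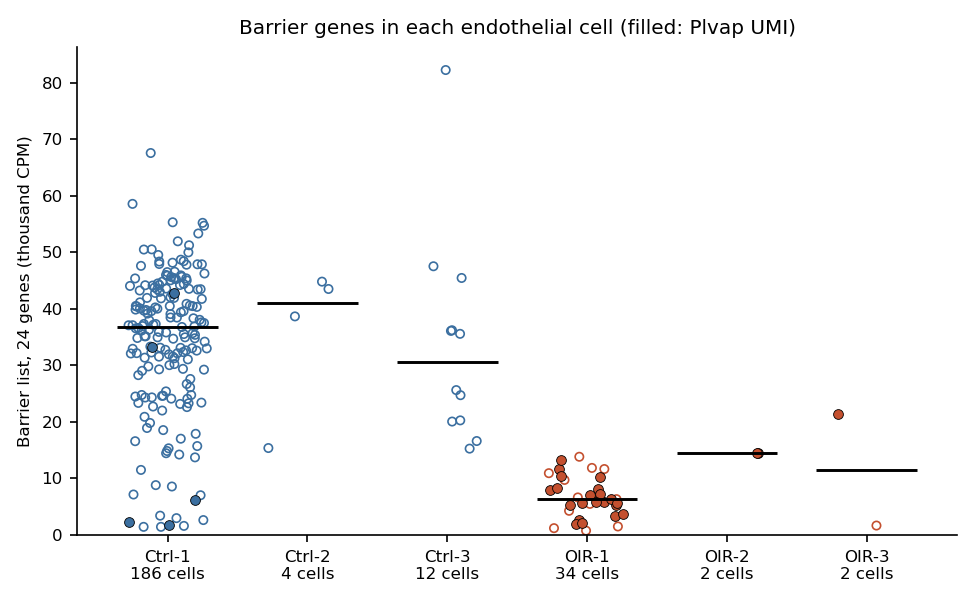
Summed level of the 24 barrier genes (y axis, CPM divided by 1000) in each endothelial cell of each library (x axis); filled points have a Plvap UMI and black lines are medians. The 34 cells of OIR-1 lie at or below 13846 CPM, as do 15 of the 186 cells of Ctrl-1 and no cell of Ctrl-2 or Ctrl-3.

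Genes of flow-induced quiescence were counted beside the barrier. Of 9 such genes, 6 were tested, none was called, and the groups did not overlap in 4, all lower in OIR, where 4.47% of all genes with a UMI lay so. Klf2, the transcription factor induced by laminar flow, stood at 531, 1312 and 1356 CPM in OIR and at 2659, 2136 and 1660 CPM in control (log2 fold change -1.03, adjusted p = 0.352). The 15 signalling receptor genes summed to 3342, 4055 and 4271 CPM in OIR and to 4584, 5660 and 4883 CPM in control. Of these 12 were tested, 3 with a higher and 9 with a lower fitted level, and none was called. Flt1, the decoy receptor for VEGF, stood at 1042, 1342 and 998 CPM in OIR and at 1983, 2031 and 1484 CPM in control (adjusted p = 0.367). Tspan12, a part of the norrin receptor complex, went the other way, with 135, 106 and 125 CPM in OIR and 76.6, 52.1 and 58.6 CPM in control (adjusted p = 0.409).

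Plvap (chr8:71497765-71511752, GRCm38, minus strand) had 182, 5 and 2 UMIs in OIR-1 to OIR-3, or 165, 75.4 and 15.6 CPM. The control libraries had 7, 0 and 0 UMIs, or 2.34 CPM in Ctrl-1, where a count of 0 in Ctrl-2 and Ctrl-3 allows up to 52.1 and 58.6 CPM. The 3 OIR values were above the 3 listed control values, but that of OIR-3 was below what the depth of Ctrl-2 and Ctrl-3 could show. Plvap was under the filter on low counts. Fitted beside the genes that passed, it had a log2 fold change of 5.29 ± 1.11 (SE) and an adjusted p of 0.144.

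By cells, Plvap had a UMI in 22 of 34, 2 of 2 and 1 of 2 cells in OIR and in 5 of 186, 0 of 4 and 0 of 12 cells in control. The mean share was 71.6 ± 25.7% in OIR and 0.896 ± 1.55% in control (two-sided exact permutation test, p = 0.1, 0.3 after adjustment over the 6 shares tested, where 0.1 is the smallest p that 3 against 3 libraries can give). In rods, which should lack Plvap, 0.524% of cells in OIR-1 and 0.339% in Ctrl-1 had a UMI, at medians of 3164 and 2607 UMIs. At 10000 UMIs per cell, the share was 65.4% in OIR-1 (44.3 to 82.8%) and 1.14% in Ctrl-1 (0.0288 to 6.17%). At 1000 UMIs it was 15.2% in OIR-1, 0.549% in Ctrl-1 beside 0 of 2860 rods of OIR-1 and 4 of 2735 rods of Ctrl-1 (0.146%), and over the libraries 21.7 ± 25.6% in OIR and 0.183 ± 0.317% in control (two-sided exact permutation test, p = 0.4). The difference between these 2 libraries thus remained at matched depth.

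Plvap was the fenestrated gene whose groups did not overlap. Of the 9 genes of the list 4 were tested, 2 with a higher and 2 with a lower fitted level in OIR, and the summed level overlapped (3323 ± 1252 CPM in OIR, 3006 ± 508 CPM in control). With the genes under the filter fitted as well, 6 of 9 had a higher fitted level, 3 of these at an unadjusted p below 0.05, as had 6.97% of all genes so fitted, and none was called. In the libraries with at least 10 cells, 8 of 9 had a higher fitted level, 4 were called higher and 1 lower, against 3.17% and 2.29% of all genes. Gpihbp1, the lipase anchor of peripheral capillaries, had 12.7, 0 and 148 CPM in OIR and 71.9, 260 and 58.6 CPM in control. Igfbp3, an IGF-binding protein, had 1242, 1236 and 842 CPM in OIR and 1217, 174 and 527 CPM in control. Aqp1, the water channel, had 675, 181 and 0 CPM in OIR and 5.02, 0 and 0 CPM in control, with 350 of its 746 UMIs of OIR-1 in 1 cell. Aqp1 was also found in 22.3% of rods of OIR-1 and 14.3% of rods of Ctrl-1, beside 26.5% of endothelial cells in OIR-1 and 4.84% in Ctrl-1. At 10000 UMIs per cell these endothelial shares were 19.2% (6.55 to 39.4%) and 1.14% (0.0288 to 6.17%), whose intervals do not overlap. The level reached 6242 CPM in 1 cell of OIR-1, and the part of free transcripts in the shares was not tested.

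The summed level of the tip cell list was 7441, 5970 and 6968 CPM in OIR and 3490, 10661 and 7383 CPM in control, so that Ctrl-1 was the lowest and Ctrl-2 the highest of all 6 libraries. Of the 21 genes 10 were tested, 5 higher and 5 lower, the median of their log2 fold changes was -0.03, and none was called. With the genes under the filter fitted as well, 15 of 21 had a higher fitted level and none was called. With no filter on low counts, 17 had a higher fitted level and 5 were called higher, and in the libraries with at least 10 cells 19 had one and 9 were called higher, where 1.58% and 3.17% of all genes were. Most of this level came from Col4a1 and Col4a2, the chains of basement membrane collagen IV. Col4a1 had 2541, 2035 and 2237 CPM in OIR and 988, 4306 and 2226 CPM in control.

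Apln, Esm1 and Angpt2 were higher in OIR-1 than in any control library, although 1 cell of OIR-1 held 90 of its 181 Apln UMIs. Apln, the ligand of the apelin receptor, had 164, 75.4 and 242 CPM in OIR and 24.4, 104 and 19.5 CPM in control, where Ctrl-2 lay above OIR-2 (log2 fold change 2.28 ± 0.58 SE, adjusted p = 0.179). Esm1, the proteoglycan endocan, had 61.5, 0 and 0 CPM in OIR and 6.35, 0 and 0 CPM in control, and neither OIR-2 nor OIR-3 held a UMI. Angpt2, the antagonist of Tie2, had 186, 15.1 and 31.2 CPM in OIR and 20.7, 17.4 and 0 CPM in control. Mcam, an adhesion molecule, had 305, 271 and 327 CPM in OIR and 39.5, 191 and 117 CPM in control and lay apart (log2 fold change 1.79, adjusted p = 0.228). Adm, adrenomedullin, lay apart in the other direction, with 45.3, 15.1 and 85.7 CPM in OIR and 131, 174 and 215 CPM in control (adjusted p = 0.218). Pdgfb, the ligand that recruits pericytes, had 252, 211 and 312 CPM in OIR and 324, 521 and 312 CPM in control, with OIR-3 only just below Ctrl-3.

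Joint detection of the tip genes was counted within OIR-1. Esm1 had a UMI in 8 of 34 cells, all 8 of which had Plvap and 7 of which had Angpt2. Apln had a UMI in 16 cells, of which 11 had Plvap, close to the 22 of all 34 cells. At 10000 UMIs per cell, 3 of 5 cells with Esm1 had Angpt2, against 7 of all 26, and 8 of 10 cells with Apln had Plvap, against 17 of 26. The unthinned counts favour deep cells, which hold more UMIs of every gene, and no test was made of either. At that depth, Apln was found in 38.5% of OIR-1 cells (20.2 to 59.4%) and 7.95% of Ctrl-1 cells (3.26 to 15.7%). Esm1 was found in 19.2% (6.55 to 39.4%) and 2.27% (0.276 to 7.97%), and Angpt2 in 26.9% (11.6 to 47.8%) and 10.2% (4.78 to 18.5%), where these last 2 pairs of intervals overlapped.

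**Figure D4:**
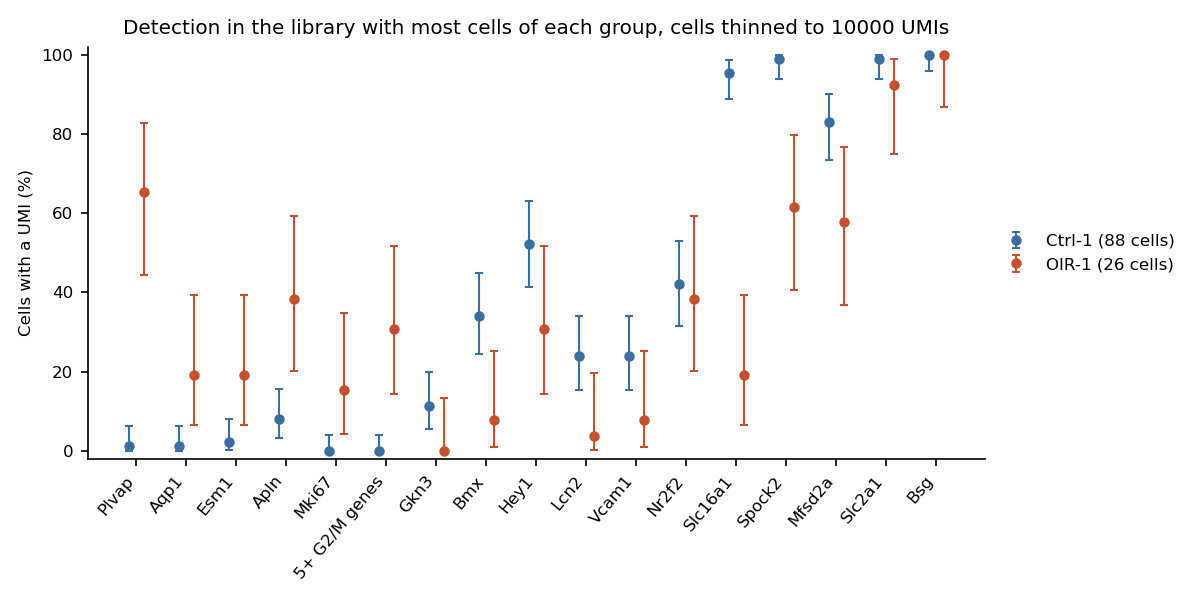
Percent of cells with a UMI (y axis) of 16 genes, and with at least 5 of 18 G2/M genes, in 26 cells of OIR-1 (orange) and 88 cells of Ctrl-1 (blue), each thinned to 10000 UMIs; bars are 95% Clopper-Pearson intervals for counting error within these 2 libraries. Plvap (65.4% against 1.14%) and Slc16a1 (19.2% against 95.5%) lie furthest apart of the features plotted.

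Cells in division were found through the G2/M genes, which are switched on together late in the cell cycle. The 18 genes of this list summed to 1211, 5502 and 31.2 CPM in OIR-1 to OIR-3 and to 40.1, 17.4 and 0 CPM in Ctrl-1 to Ctrl-3, so that OIR-3 was within the control range. Counted per cell, 230 of the 240 cells had 0 to 4 of the 18 genes and 10 had 8 to 18, with none between. The limit of 8 was set in this gap after the values were seen. The 10 cells were 9 of 34 in OIR-1 (26.5%, 12.9 to 44.4%), 1 of 2 in OIR-2 and 0 of 2 in OIR-3. In the control libraries they were 0 of 186, 0 of 4 and 0 of 12, which allows up to 1.61% of Ctrl-1 cells to reach 8 genes at the depth they had. This does not limit the share in division, since 98 of the 186 cells had fewer than 10000 UMIs and at 10000 UMIs 4 of 26 cells of OIR-1 reached 8 genes. The cells of Ctrl-3 had a median of 1432 UMIs, and at 1000 UMIs none of 33 cells of OIR-1 reached 8 genes either, so that dividing cells were not detectable at such a depth, and Ctrl-2 held too few cells to limit a share. No rod reached 8 of these genes in any library, but rods had medians of 1407 to 3164 UMIs, so that this gives no background for the count.

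The bases before the starts of 3 of these genes are shown because late cell cycle genes are known to share promoter elements. Within the 9 dividing cells of OIR-1 they were not equally high, with Mki67 at 1 to 30 UMIs and Top2a at 0 UMIs in 5 of them. The first pattern searched, CCAAT, spells the box bound by NF-Y. The second pattern, TTTGAA, spells the cell cycle homology region. Capitals mark both patterns, also where they lie on the other strand and read ATTGG. The second pattern then reads TTCAAA. The windows are the 250 bases before the RefSeq start, written 5′ to 3′ on the strand of the gene, GRCm38.p6.
Mki67, chr7:135716380-135716629, minus strand: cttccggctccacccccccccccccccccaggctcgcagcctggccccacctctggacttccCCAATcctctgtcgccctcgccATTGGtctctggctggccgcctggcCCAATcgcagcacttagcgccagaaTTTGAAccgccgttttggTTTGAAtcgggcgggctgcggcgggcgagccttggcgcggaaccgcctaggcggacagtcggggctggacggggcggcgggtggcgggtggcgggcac
Top2a, chr11:99024190-99024439, minus strand: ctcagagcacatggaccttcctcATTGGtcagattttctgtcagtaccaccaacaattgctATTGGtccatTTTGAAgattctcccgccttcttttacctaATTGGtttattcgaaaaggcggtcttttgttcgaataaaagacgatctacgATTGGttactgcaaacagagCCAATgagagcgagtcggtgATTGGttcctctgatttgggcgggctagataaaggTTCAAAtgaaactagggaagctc
Ccnb2, chr9:70421555-70421804, minus strand: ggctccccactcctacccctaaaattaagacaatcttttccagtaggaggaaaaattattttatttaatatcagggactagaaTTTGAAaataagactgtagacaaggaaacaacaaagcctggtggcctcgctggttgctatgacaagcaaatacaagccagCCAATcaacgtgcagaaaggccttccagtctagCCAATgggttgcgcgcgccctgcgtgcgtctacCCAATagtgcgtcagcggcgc

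Mki67 held 3 matches of the first pattern and 2 of the second, Top2a 6 and 2, and Ccnb2 3 and 1. Of the 18 G2/M genes 15 had an entry in the promoter table. The first pattern was in 13 of these 15 (86.7%), against 34.5% of 27025 genes with an entry. The second was in 7 of 15 (46.7%), against 16.3%, and both were in 7 of 15, against 5.76%. A match of letters is a description of the window and not a bound site.

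Mki67 (chr7:135689784-135716361, GRCm38, minus strand), the proliferation marker Ki-67, had 74, 25 and 0 UMIs in the OIR libraries and none in any control library, where a count of 0 in Ctrl-1 allows up to 1.00 CPM. Its 74 UMIs of OIR-1 lay in 9 cells, the same number as held 8 or more G2/M genes. Top2a, topoisomerase II alpha, had 70, 40 and 0 UMIs in OIR and 9, 0 and 0 in control. Ube2c, a ubiquitin-conjugating enzyme of mitotic exit, had 168, 38 and 0 UMIs in OIR and 9, 0 and 0 in control. Birc5 (survivin) had 165, 30 and 0 UMIs in OIR and 1, 0 and 0 in control. Ccnb2, cyclin B2, had 103, 17 and 1 UMIs in OIR and 1, 0 and 0 in control. OIR-1 and OIR-2 were high in each of these genes, and OIR-3 was not.

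No G2/M gene passed the filter on low counts. With these genes fitted beside the others, all 18 had an unadjusted p below 0.05, as did 6.97% of the 1908 genes so tested in the same direction and 5.66% in the other, and none passed after adjustment (Ccnb2 had an adjusted p of 0.144 and Mki67 of 0.207). With no filter on low counts, all 18 were called higher in OIR, where 1.58% of 15605 genes were. Between these fits, the call thus came with the filter dropped for all genes and not with these genes alone added. In the libraries with at least 10 cells, where OIR-1 was the lone OIR library, all 18 had a higher fitted level (median log2 fold change 6.40). The S phase list summed to 366, 528 and 46.8 CPM in OIR and 92.0, 104 and 117 CPM in control, and Pcna, the sliding clamp of replication, overlapped (55.2, 45.2 and 23.4 CPM in OIR and 37.8, 52.1 and 39.1 CPM in control). Tyms, thymidylate synthase, was listed higher in OIR, with 55.2, 45.2 and 15.6 CPM in OIR and 8.36, 0 and 0 CPM in control. These were 61, 3 and 2 UMIs in OIR and 25, 0 and 0 UMIs in control. All 3 OIR values were below what a count of 0 allows at the depth of Ctrl-3, so that the groups were not shown to lie apart. Fitted beside the genes that passed the filter, all 13 S phase genes had a higher fitted level, 5 of them at an unadjusted p below 0.05, and none was called. With no filter 5 of 13 were called higher, and in the libraries with at least 10 cells 8 of 11, against 1.58% and 3.17% of all genes. With cells thinned to 10000 UMIs, at least 2 S phase genes were found in 69.2% of OIR-1 cells (48.2 to 85.7%) and 19.3% of Ctrl-1 cells (11.7 to 29.1%). The share of cells with at least 2 genes of both lists was 91.2 ± 15.3% in OIR and 33.2 ± 22% in control (two-sided exact permutation test, p = 0.1, 0.3 after adjustment). With cells thinned to 1000 UMIs it was 22.7 ± 25.3% in OIR and 0.549 ± 0.952% in control (two-sided exact permutation test, p = 0.4), with none of the 2 cells of OIR-3. The part of depth in the unthinned share was not tested.

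**Figure D5:**
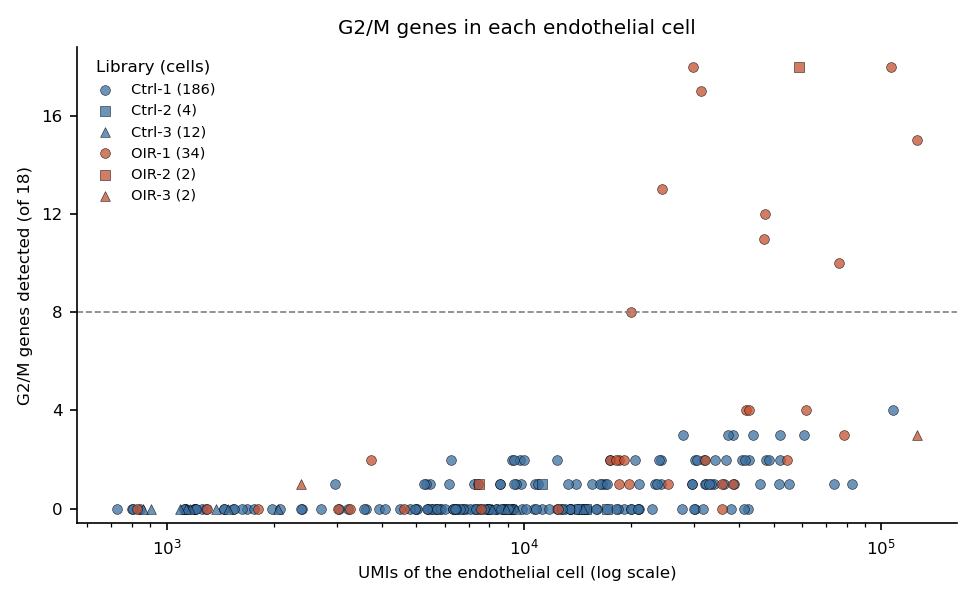
Number of the 18 G2/M genes detected (y axis) against the UMIs (x axis, log scale) of each of the 240 endothelial cells, by library; the dashed line is the limit of 8 genes. The 10 cells at or above the line are 9 of OIR-1 and 1 of OIR-2, and no control cell has more than 4 genes.

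The dividing cells were deep, with 19895 to 125971 UMIs, and 8 of the 10 had more than 5000 detected genes. The 47 cells of Ctrl-1 with more than 5000 genes reached no more than 4 G2/M genes. At 10000 UMIs per cell, at least 8 G2/M genes were found in 4 of 26 cells of OIR-1 (15.4%, 4.36 to 34.9%) and in 0 of 88 cells of Ctrl-1. At a lower limit chosen for this depth, at least 5 were found in 8 of 26 cells of OIR-1 (30.8%, 14.3 to 51.8%) and in 0 of 88 cells of Ctrl-1, which allows up to 3.41%. Of the 9 dividing cells of OIR-1, 8 had all 8 rule genes. The other had 4 rule genes, no Plvap and 573 UMIs of smooth muscle genes, so that its markers went against an endothelial identity. In OIR-2, the dividing cell had 58856 of the library's 66334 UMIs and all 18 genes.

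The dividing cells were set beside the other cells of OIR-1. Among the cells with 7 or 8 rule genes, the 8 dividing cells had a median of 7146 CPM of the barrier list and the 18 others 6555 CPM. Their medians of the tip cell list were 5651 and 7861 CPM, those of the fenestrated list 2545 and 4055 CPM, and those of Bsg 2091 and 535 CPM. Plvap had a UMI in 7 of the 8 dividing cells and in 15 of the 18 others. These are cells of 1 library, and no test was made of them.

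The arterial list overlapped between the groups, with 1722, 4146 and 1465 CPM in OIR and 3605, 3959 and 2305 CPM in control. Of its 16 genes 4 were tested and none was called by edgeR, while DESeq2 called 1 of the 4 lower, against 0.624% of all genes. Without OIR-3, edgeR called 1 of 3 lower, against 0.817% of all genes. With no filter on low counts 1 arterial gene was called higher and 2 lower, and in the libraries with at least 10 cells 1 higher and 3 lower of 15, where 1.58% and 1.01%, and 3.17% and 2.29%, of all genes were. In 2 genes, Cxcl12 and Sox17, all OIR libraries lay below all control libraries, and in 1, Efnb2, above, where 4.47% and 3.21% of all genes with a UMI lay so. Cxcl12, a chemokine of arterial endothelium, had 226, 121 and 561 CPM in OIR and 1118, 2865 and 1367 CPM in control (log2 fold change -2.50 ± 0.52 SE, adjusted p = 0.118). Sox17, a factor of arterial identity, had 148, 256 and 195 CPM in OIR and 538, 642 and 332 CPM in control (log2 fold change -1.39 ± 0.38 SE, adjusted p = 0.218). Gja4, the gap junction protein connexin 37, had 428, 30.2 and 179 CPM in OIR and 43.1, 17.4 and 137 CPM in control (log2 fold change 2.11 ± 0.77 SE, adjusted p = 0.330). Efnb2, the arterial ephrin, had 93.2, 106 and 125 CPM in OIR and 79.6, 69.5 and 0 CPM in control. Mgp, the matrix Gla protein, had 359, 3090 and 0 CPM in OIR and 1241, 0 and 19.5 CPM in control, and had a UMI in 99 of the 186 cells of Ctrl-1 and in 11 of the 34 of OIR-1. In OIR-1, 1 cell held 220 of the 397 Mgp UMIs, and the OIR-2 level came from 205 UMIs in 2 cells.

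Some arterial genes were held by few cells. Bmx, a kinase of arterial endothelium, had 7.24, 60.3 and 31.2 CPM in OIR and 50.8, 0 and 39.1 CPM in control, with only 4 UMIs each in OIR-2 and OIR-3. Gkn3 had 118 UMIs in 17 of the 186 cells of Ctrl-1 and none in any other library. The 10 cells with most Gkn3 held 94.1% of it and those with most Bmx held 52.6% of that. At 10000 UMIs per cell, Bmx was found in 34.1% of Ctrl-1 cells (24.3 to 45.0%) and 7.69% of OIR-1 cells (0.946 to 25.1%), and Hey1, a Notch target, in 52.3% (41.4 to 63.0%) and 30.8% (14.3 to 51.8%). Gja4 went the other way, with 15.9% of Ctrl-1 cells (8.98 to 25.2%) and 42.3% of OIR-1 cells (23.4 to 63.1%). Gkn3 was found in 11.4% of Ctrl-1 cells and in 0 of 26 OIR-1 cells, which allows up to 11.5%, so that a difference was not detectable at this depth.

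The venous list overlapped as well, with 1331, 1100 and 2253 CPM in OIR and 1890, 1667 and 2148 CPM in control. Of its 14 genes 6 were tested, the median of their log2 fold changes was -0.04, and none was called by edgeR or DESeq2. With no filter on low counts 2 of 14 were called lower, against 1.01% of all genes, and in the libraries with at least 10 cells 2 of 12, against 2.29%. Vwf, von Willebrand factor, had 213, 151 and 686 CPM in OIR and 595, 521 and 449 CPM in control, with OIR-3 above every control library. Tmem252 had 526, 588 and 460 CPM in OIR and 564, 451 and 566 CPM in control. Icam1, the leukocyte adhesion molecule, had 129, 151 and 101 CPM in OIR and 121, 52.1 and 117 CPM in control. Slc38a5, a glutamine transporter, had 108, 0 and 444 CPM in OIR and 118, 174 and 312 CPM in control. Aplnr, the apelin receptor, had 187, 45.2 and 234 CPM in OIR and 51.2, 243 and 352 CPM in control.

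Vcam1 and Lcn2 were likewise held by few cells of Ctrl-1. Vcam1, an adhesion molecule, had 225 UMIs in 35 cells and Lcn2, lipocalin 2, 160 UMIs in 35 cells, with 6 and 4 UMIs in OIR-1 and none in the other 4 libraries. In Ctrl-1 at 10000 UMIs per cell, Gkn3 was found in 10 of 88 cells. Of these, 8 also had Bmx and none had Nr2f2, the venous nuclear receptor found in 37 of the 88. Lcn2 was found in 21 cells, of which 17 had Slc38a5 and 13 Nr2f2, but 6 had Bmx. Vcam1 was found in 21 cells, of which 12 had Bmx, 9 had Gja4, 6 had Gkn3, 7 had Nr2f2 and 8 had Slc38a5. Its cells thus did not set it with the venous genes. Of the 61 cells with Mgp, 29 had Nr2f2. Gja4 was found in 14 cells, of which 1 had Nr2f2, and Bmx in 30, of which 8 had it. Some arterial and venous genes thus shared few or no cells and others shared many, which is a description within 1 library with no test. The share of cells with at least 2 arterial genes was 78.4 ± 25.7% in OIR and 84.2 ± 16.7% in control (two-sided exact permutation test, p = 0.7), and with at least 2 venous genes 79.4 ± 26.1% and 81.5 ± 21.2% (two-sided exact permutation test, p = 1.0). With 3 against 3 libraries these tests cannot reach 0.05.

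Over all 1763 genes tested, 2 rose and 2 fell, or 0.113% in each direction. None of the 4 calls held with a sex term (adjusted p = 0.102 for Col18a1 and 0.307 for Sat1), with the replicate number as a block (74 genes higher and 95 lower at an unadjusted p below 0.05) or without OIR-1 or Ctrl-2, and without Ctrl-1 1 other gene, Xist, was called. The log2 fold changes stayed between 3.86 and 4.53 for Col18a1 and between 2.30 and 3.23 for Sat1 under all alternatives in which they were tested. Col18a1 (chr10:77052178-77166548, GRCm38, minus strand), the basement membrane collagen whose end fragment is endostatin, rose in OIR, with 825, 1191 and 335 CPM against 34.8, 34.7 and 78.1 CPM in control (edgeR, log2 fold change 4.19 ± 0.59 SE, adjusted p = 0.035). Sat1 (chrX:155213132-155216449, GRCm38, minus strand), which acetylates spermidine and spermine, rose, with 2306, 1915 and 928 CPM against 330, 139 and 293 CPM (log2 fold change 2.69 ± 0.45 SE, adjusted p = 0.0443). The lncRNA Malat1 (chr19:5795690-5802672, GRCm38, minus strand) fell together with Slc16a1, with 6188, 9543 and 7522 CPM against 21353, 39986 and 19960 CPM (log2 fold change -1.77 ± 0.30 SE, adjusted p = 0.0443). Malat1 lost its call, at a log2 fold change of -0.29, among cells with at most 5000 genes, and at -0.92 without the dividing cells. Counted over the alternatives, the call was lost in 5 of 18 for Col18a1, 11 of 20 for Sat1 and 14 of 20 for Malat1. At an unadjusted p below 0.05, 5.73% of the genes lay higher and 6.24% lower. In 165 genes tested all OIR libraries lay above all control libraries (9.36%), and in 137 below (7.77%). At 10000 UMIs per cell, Col18a1 had a UMI in 84.6% of OIR-1 cells (65.1 to 95.6%) and 14.8% of Ctrl-1 cells (8.11 to 23.9%).

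Transcripts of other cell types were present beside the endothelial ones. Smooth muscle genes summed to 530, 30.2 and 54.6 CPM in OIR and to 96.6, 0 and 39.1 CPM in control, led by Acta2 in OIR-1, where 573 of the 586 UMIs lay in the 1 dividing cell named above. Pericyte genes summed to 257, 15.1 and 0 CPM in OIR and to 65.9, 0 and 19.5 CPM in control, and 234 of the 284 pericyte UMIs of OIR-1 lay in the same dividing cell, which also held 236 of that library's 1338 G2/M UMIs. Rod genes summed to 1140, 166 and 405 CPM in OIR and to 1506, 174 and 2461 CPM in control. Haemoglobin and related red cell genes took 32703 CPM in Ctrl-1, where 13 cells had more than 1% of their UMIs from them, and at most 1.81 CPM elsewhere. The Müller glia list was higher in all OIR libraries (6359, 4447 and 5152 CPM, against 3211, 1823 and 2851 CPM), led everywhere by Vim, which endothelial cells also express. Immediate early genes of dissociation summed to 1324, 3588 and 3165 CPM in OIR and to 3829, 1754 and 703 CPM in control and overlapped. The part of these transcripts in the differences above was not tested, beyond the refits without the cells that carried them.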

How the data were processed

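Single-cell 3′ libraries of 6 retina pools were sequenced, and per the labels the reads were aligned to mm10. The study's methods name GRCh38, which goes against the mouse gene names in the files. The deposited values are raw UMI counts per gene and barcode, written by the authors with Cell Ranger and not normalized. Members were summed per library and tested with edgeR 4.0.16 (quasi-likelihood, TMM, filterByExpr) in R 4.3.3, without a block. A call had a Benjamini-Hochberg adjusted p below 0.05 with a log2 difference of 0.25 or more. Every adjusted p in the text comes from this fit across all genes unless another is named. Shares were compared with exact permutation tests over libraries (scipy 1.17.1), and intervals are Clopper-Pearson at 95%. Floors are 3 counts, and both cover counting error only. No doublet caller was run, and a refit left out cells with at least 2 genes of another cell type. DESeq2 1.42.0 was an alternative.

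Named genes were the rule genes, Plvap, Esm1, Apln, Mki67, Top2a and Slc2a1, the 5 genes with most UMIs of the arterial, venous, tip, fenestrated, barrier, S and G2/M lists, and up to 10 called genes in each direction. Other genes were named after their values were seen. Members and lists were chosen with earlier results of these data known. The limits of 8 G2/M genes and 7 rule genes, the thinning to 10000 UMIs, and the refits of thinned cells and without red cell transcripts or dividing cells were chosen after seeing the data. On simulated counts for 1763 genes, the test recovered 0% of 2-fold, 86% of 4-fold and 100% of 16-fold changes. Same-numbered libraries correlated at -0.103, 0.00791 and -0.0169 in their deviations from the group means of the endothelial sums, and at 0.615, 0.393 and 0.437 in sums over all filtered barcodes. The numbers come from the labels, which do not say what they mark, and the block was an alternative fit, given beside the calls it changes because of the second set. The main fit and the tests of shares are unpaired. Coordinates are those of GENCODE M21 on GRCm38, and promoter sequences those of RefSeq on GRCm38.p6.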

Additional observations from a re-analysis of the deposited data

How the results depend on the processing

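The number of genes called higher and lower in OIR, 2 and 2, depended on most settings. It was 4 and 11 with DESeq2, 247 and 157 with no filter on low counts, 304 and 220 in libraries with at least 10 cells, 0 and 0 with the replicate block, and 0 and 0 with a sex term. It was 1 and 0 with at least 4 rule genes, with at least 7, without cells holding genes of another cell type, and without cells over 1% haemoglobin UMIs, 2 and 1 without dividing cells, 1 and 11 in cells thinned to 1000 UMIs (115 genes tested), and 1 and 3 in cells with at most 5000 genes. Leaving out 1 library gave 0 to 12 higher and 0 to 11 lower, with 12 and 11 without OIR-3, 4 and 7 without OIR-2, and 1 and 2 without Ctrl-3. The cause was not tested. The replicate block changed no call other than these. The share of endothelial cells, OIR minus control, was -0.732 percentage points and ranged from -1.16 to 0.0825 without 1 library, the last without Ctrl-1. The difference was -1.78 among barcodes with under 1% of UMIs from rod genes. That limit also applied to the endothelial cells and left 31, 2 and 1 of them in OIR and 173, 4 and 12 in control. The arterial share difference was 0.759 points at 3 genes of the list, -14.9 in thinned cells, -25.8 at 5000 genes or fewer and -16.6 to 8.42 without 1 library. The venous one was 1.99 in thinned cells, 6.81 at 1 gene, -21.1 at 5000 genes or fewer and -13.6 to 12.7 without 1 library, with 0.245 without Ctrl-1 and 7.23 without Ctrl-2. The tip one was -0.443 at 1 gene, 2.88 at 3, 8.27 in thinned cells, -0.0423 at 5000 genes or fewer and -0.980 to 1.43 without 1 library. Of 681 values of 36 named genes under the alternatives, 618 kept their side of the threshold, 40 lost a call and 23 gained one. Of the sexes, both female libraries were controls, so that the sex term leaves Ctrl-1 as the one control of the sex of the OIR libraries. With 2 cells each, OIR-2 and OIR-3 limit every comparison.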

Other observations

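Barcodes were also compared between libraries. Each pair of libraries shared 9 to 34 barcodes, counted over all deposited barcodes before filtering. No shared barcode was an endothelial cell in both libraries of a pair.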
